A study of Homo sapiens with 12 samples.

Results

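DPYSL3, DPYSL2, NPTX1 and CDH4, 4 genes best known from neurons, were followed through 12 RNA-seq libraries of A549, a long-established cell line from a human lung carcinoma. They are 4 of the 58676 genes in the deposited table. DPYSL3, NPTX1 and CDH4 were taken because DPYSL3 was higher, and NPTX1 and CDH4 lower, in both knockout lines than in the control line, and DPYSL2 was added for comparison as another member of the DPYSL3 family. The genes were thus chosen by their measured FPKM in knockout and control cells, so those levels are given below as a description, with no test. The rule had no numeric threshold.

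All libraries came from A549 cells. The control line (labelled Control1) and 2 lines with a knockout of NFE2L1 (labelled NFE2L1 KO1 and NFE2L1 KO2) each received DMSO as vehicle or bortezomib, which blocks the proteasome, at 200 nM and for 4 h. There were 6 groups of 2 libraries. In the knockout lines the library titles end in R1 or R2, and in the control line 1 library of each group ends in R2 and the other has no suffix. The labels do not say how the deletions were made, whether each line is a clone, or whether the 2 libraries of a group came from separate cultures, so p-values measure only the spread between these libraries, which may be technical. Each contrast of knockout with control also carries whatever else differs between 3 cell lines.

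NFE2L1, also called NRF1, is a transcription factor of the cap'n'collar family that pairs with small MAF proteins and drives proteasome genes when the proteasome is inhibited. DPYSL3 and DPYSL2 belong to the collapsin response mediator proteins (CRMPs), cytosolic proteins that bind tubulin and actin and relay semaphorin signals to the growth cone of axons. NPTX1, neuronal pentraxin 1, is a secreted protein that clusters AMPA-type glutamate receptors at synapses. CDH4, also called R-cadherin, is a classical cadherin of retina and brain that joins cells by calcium-dependent contacts and is linked to actin through catenins.

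The promoters are shown because NFE2L1 with a small MAF protein binds elements with the core TGACNNNGC, which can be looked for in the genes that were higher or lower. RefSeq windows (GRCh38.p14) of 250 bases before and 50 after a transcript start were at hand for 2 of the 4 genes, DPYSL3 with 2 starts and CDH4 with 2 starts. Both CDH4 windows lie inside the gene, which in the deposited table begins at 61252426 on chromosome 20, and the window at that outer start was not analysed here. Capitals mark TGACNNNGC on either strand.
DPYSL3, upstream start, chr5:147510019-147510318, minus strand: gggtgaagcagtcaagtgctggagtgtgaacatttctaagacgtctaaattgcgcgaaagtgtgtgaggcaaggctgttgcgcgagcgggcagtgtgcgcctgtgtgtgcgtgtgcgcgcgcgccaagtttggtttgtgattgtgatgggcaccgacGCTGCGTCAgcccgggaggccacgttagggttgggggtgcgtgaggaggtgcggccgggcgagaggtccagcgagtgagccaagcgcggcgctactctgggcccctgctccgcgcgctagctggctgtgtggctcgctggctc
DPYSL3, downstream start, chr5:147453643-147453942, minus strand: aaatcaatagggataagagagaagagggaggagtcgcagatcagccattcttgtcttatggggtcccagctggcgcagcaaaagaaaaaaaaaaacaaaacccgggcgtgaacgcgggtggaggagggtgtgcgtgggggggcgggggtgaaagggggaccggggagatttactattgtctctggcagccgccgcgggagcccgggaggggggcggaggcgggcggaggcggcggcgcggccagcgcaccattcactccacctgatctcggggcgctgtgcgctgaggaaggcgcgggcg
CDH4, first of 2 starts, chr20:61499171-61499470, plus strand: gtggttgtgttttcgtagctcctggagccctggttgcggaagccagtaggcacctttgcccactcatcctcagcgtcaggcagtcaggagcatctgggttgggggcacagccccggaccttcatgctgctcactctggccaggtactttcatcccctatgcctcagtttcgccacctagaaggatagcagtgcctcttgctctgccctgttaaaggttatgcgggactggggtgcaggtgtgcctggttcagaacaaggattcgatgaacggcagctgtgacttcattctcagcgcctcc
CDH4, second of 2 starts, chr20:61599511-61599810, plus strand: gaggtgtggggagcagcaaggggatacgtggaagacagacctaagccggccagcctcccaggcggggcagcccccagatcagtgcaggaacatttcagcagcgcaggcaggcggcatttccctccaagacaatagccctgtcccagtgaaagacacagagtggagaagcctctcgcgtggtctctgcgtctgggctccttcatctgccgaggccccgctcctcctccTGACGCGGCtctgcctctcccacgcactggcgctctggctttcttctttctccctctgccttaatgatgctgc
The upstream DPYSL3 window held the core once, on the reverse strand as GCTGCGTCA, 93 to 85 bases before the start. The second CDH4 window held it once, as TGACGCGGC, 23 to 15 bases before the start. Of 35116 RefSeq promoter windows of the same length, 13.3% held the core at least once. A match describes these letters and is not a binding site.

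The windows differed in base composition. The DPYSL3 windows held 29 and 27 CpG dinucleotides and the CDH4 windows 9 and 14, against a median of 14 over all windows. The downstream DPYSL3 window held 3 GC boxes (GGGCGG, present in 45% of windows) and 1 CACCTG (20.6% of windows), the E-box form bound by ZEB and SNAI factors. The first CDH4 window held 1 CACCTG, and TATAAA (11.5% of windows) was found in none of the 4. All motifs were searched on both strands. FPKM is given per gene, so the starts could not be told apart in the expression values.

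Library depth was 13211608 to 23819258 reads assigned to genes. The R2 libraries stood apart from the others in every group: mitochondrial genes held 12.3 to 19.3% of reads in the 6 R2 libraries and 5.44 to 6.8% in the other 6. NFE2L1 itself checks the labels. Its FPKM (fragments for each kilobase of a gene's length, relative to the depth of the library) was 72.7 to 189 in the 4 control libraries, 8.45 to 35.8 in KO1 and 18.6 to 50.8 in KO2. In each treatment, every knockout library lay below both control libraries. The knockout lines thus kept NFE2L1 transcripts, and KO1 had 44.1 to 45.4% of the NFE2L1 level of KO2 in vehicle.

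DPYSL3, which binds tubulin and bundles actin, was under 1 FPKM in every control library. In control cells with vehicle its FPKM was 0.779 in the library without a suffix and 0.649 in R2, and with bortezomib 0.953 and 0.682. KO1 cells gave 42.1 (R1) and 13.1 (R2) with vehicle and 33.3 and 15.9 with bortezomib. KO2 cells gave 19.9 (R1) and 8.07 (R2) with vehicle and 14.4 and 8.67 with bortezomib. Every knockout library lay above every control library, and the lowest knockout value came from KO2. These values rested on 87 to 133 reads per control library and 1113 to 4191 per knockout library.

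Against the control library of the same treatment, R2 with R2 and the other library of each group with the other, DPYSL3 was 20.2 to 54.1 times as high in KO1 with vehicle and 12.4 to 25.5 times as high in KO2. With bortezomib these ratios were 23.3 to 35 in KO1 and 12.7 to 15.2 in KO2. On the log2(FPKM + 1) scale, which understates changes of low genes, the mean of both knockout lines was 3.43 above control with vehicle (SE 0.51) and 3.24 with bortezomib. Over the 12194 genes tested, those that reached a mean FPKM of 1, the median was 0.04 and 0.05. Among those genes DPYSL3 stood at percentile 2.45 in control cells with vehicle, 88.9 in KO1 and 74.7 in KO2. It reached that mean only through the knockout lines, with at most 0.953 FPKM in control. The low rank in control therefore follows from the filter and is not a rank among all genes of the table. In these bulk samples more cells with the transcript and more transcript per cell cannot be told apart.

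**Figure D1:**
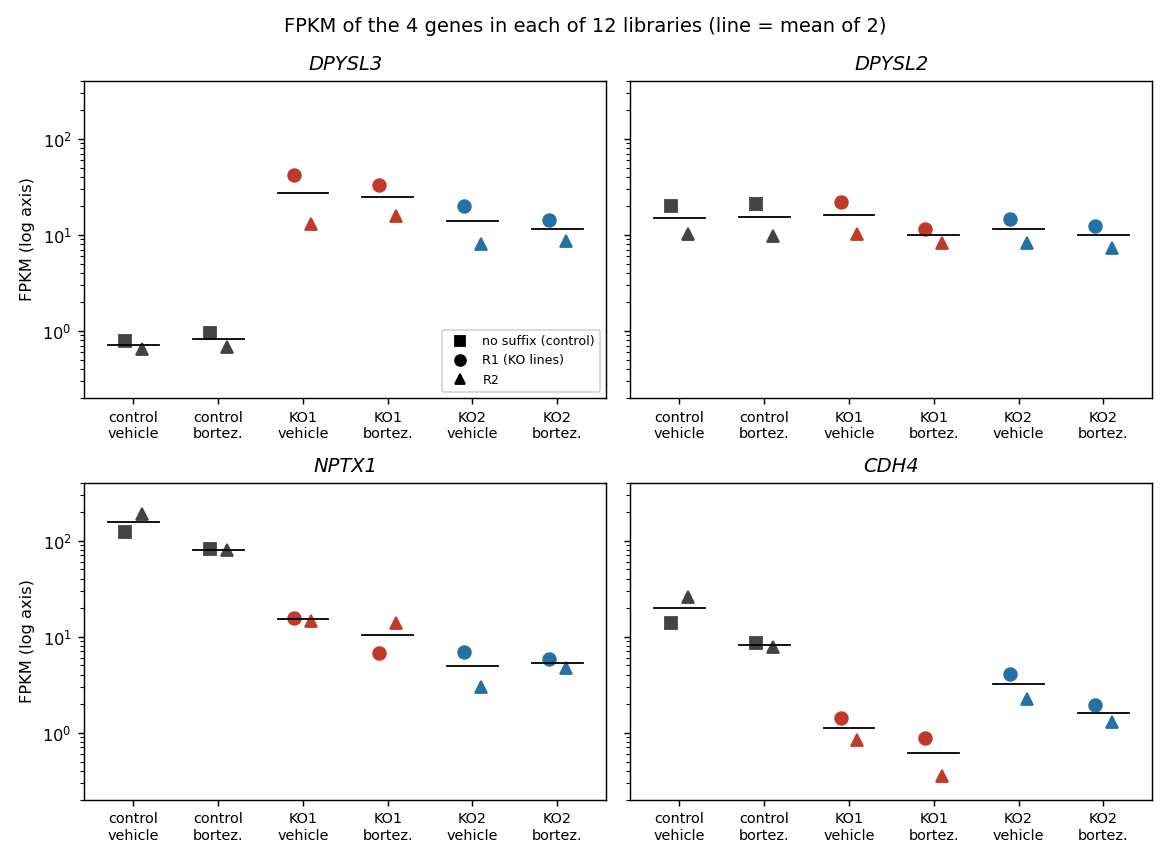
FPKM of DPYSL3, DPYSL2, NPTX1 and CDH4 (log axis) in each of the 12 libraries, by line and treatment. Squares are control libraries without a suffix, circles R1 and triangles R2, and a line marks the mean of 2 libraries. DPYSL3 is under 1 in all control libraries and at least 8.07 in all knockout libraries, NPTX1 and CDH4 are higher in all control libraries, and DPYSL2 overlaps between lines.

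DPYSL2, known for carrying tubulin dimers to the growing axon, served as the comparison. In control cells its FPKM was 19.8 (no suffix) and 10.3 (R2) with vehicle and 21.1 and 9.74 with bortezomib. In KO1 it was 22.2 (R1) and 10.2 (R2) with vehicle and 11.6 and 8.29 with bortezomib. In KO2 it was 14.6 and 8.22 with vehicle and 12.5 and 7.28 with bortezomib. The ranges of the 3 lines overlapped in each treatment, and neighbouring groups in the order of means overlapped throughout. Library by library, as above, KO2 was at 74 to 79.8% of control with vehicle and 59.2 to 74.7% with bortezomib, and KO1 at 99.5 to 112% and 54.7 to 85%. The mean of the knockout lines was -0.14 from control with vehicle and -0.53 with bortezomib on the log2(FPKM + 1) scale. Leaving out 1 library at a time gave -0.58 to 0.30 with vehicle and -1.05 to -0.01 with bortezomib, the ends being the 2 control libraries of each treatment.

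Both CRMP genes were lower in the R2 library than in its partner in 6 of 6 groups. The R2 value was 0.311 to 0.833 of its partner for DPYSL3 and 0.461 to 0.716 for DPYSL2, while NFE2L1 was higher in R2 in 6 of 6 groups (1.32 to 2.08 times). CDH4 was higher in R2 in 1 of 6 groups and NPTX1 in 2 of 6. Over all genes tested, the differences between R2 and its partner correlated at 0.7 to 0.89 between groups. A shared direction is thus not particular to these genes, and the share of all genes with it was not counted. The mitochondrial share moved with the suffix, as given above, and its part in these levels was not tested.

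The other CRMP genes did not share the large difference of DPYSL3 between the lines. CRMP1, also a brain CRMP, had 1.65 to 2.35 FPKM in control cells and 1.7 to 2.64 in knockout cells, so the lines overlapped. DPYSL4, another brain CRMP, had 2.86 to 4.3 FPKM in control cells with vehicle, 4.36 to 4.49 in KO1 and 3.97 to 5.1 in KO2. With bortezomib its group means were 9.99 FPKM in control and 11.9 in both knockout lines. DPYSL5, also named CRMP5, was under the filter on low values, with 0.548 to 1.3 FPKM in control cells and 0.114 to 0.555 in knockout cells. Summed per length over the 5 genes, DPYSL3 held 2.59 to 3.82% of CRMP-family FPKM in control libraries, 42.5 to 59.1% in KO1 and 30.2 to 47.5% in KO2. The share of DPYSL2 was 45.8 to 71.1% in control, 19.4 to 33.5% in KO1 and 25.3 to 35.4% in KO2. The family sum was 17.0 to 36.8 FPKM in control libraries, 30.6 to 71.3 in KO1 and 23.2 to 42.6 in KO2.

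**Figure D2:**
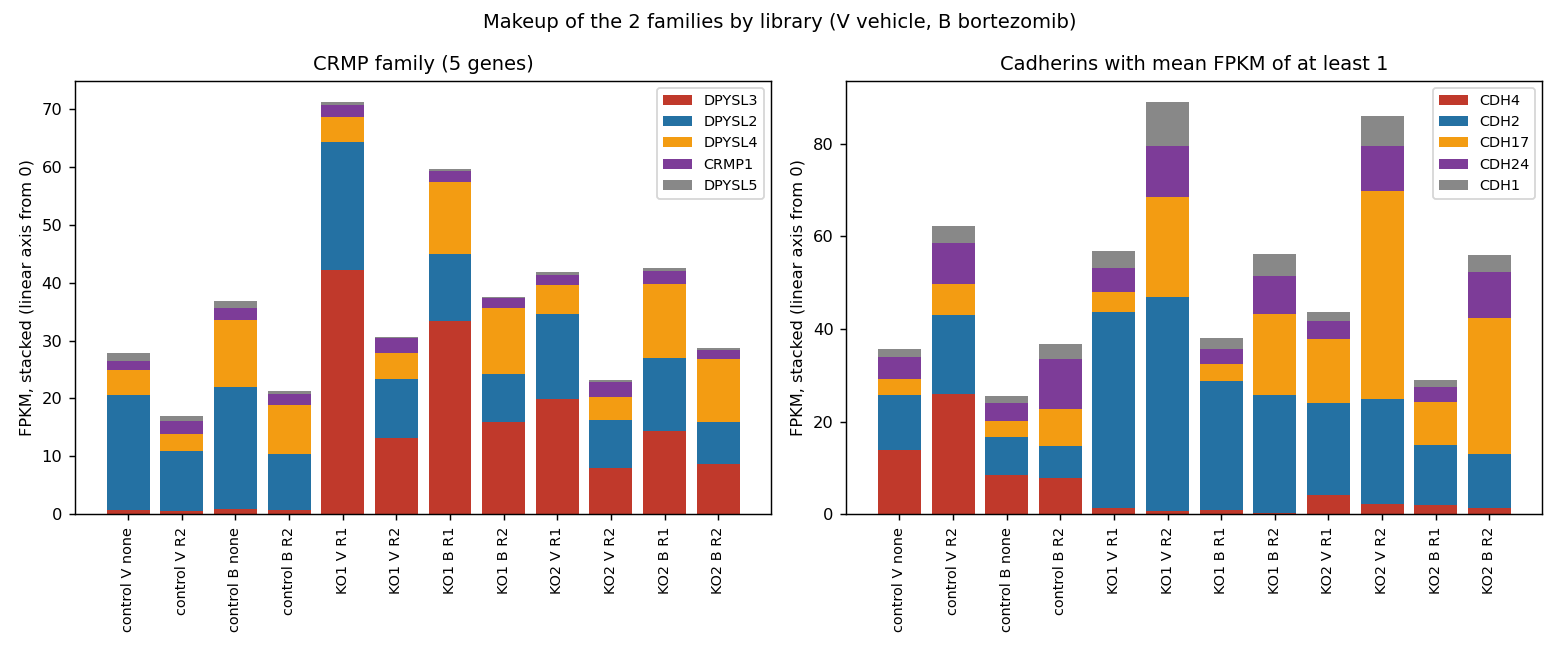
Stacked FPKM (linear axis from 0) of the 5 CRMP genes on the left and of the 5 cadherins with a mean FPKM of at least 1 on the right, in each library (V vehicle, B bortezomib). DPYSL3 is a thin layer in the 4 control libraries and 30.2 to 59.1% of the CRMP sum in the knockout libraries, and CDH4 holds 20.7 to 41% of cadherin FPKM in control and at most 9.34% in knockout libraries.

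NPTX1 was among the highly expressed genes of the control line. Its FPKM was 122 (no suffix) and 189 (R2) in control cells with vehicle and 80.8 and 79.7 with bortezomib. KO1 gave 15.6 (R1) and 14.6 (R2) with vehicle and 6.78 and 13.8 with bortezomib. KO2 gave 6.91 (R1) and 3.02 (R2) with vehicle and 5.9 and 4.73 with bortezomib. Every control library lay above every knockout library, and the 2 KO1 libraries lay above the 2 KO2 libraries in each treatment. NPTX1 stood at percentile 98.7 of tested genes in control cells with vehicle, 77.6 in KO1 and 42.7 in KO2.

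Library by library, NPTX1 in vehicle was 7.74 to 12.8% of its control level in KO1 and 1.6 to 5.68% in KO2. The mean of the knockout lines was -4.00 from control with vehicle (SE 0.39) and -3.31 with bortezomib on the log2(FPKM + 1) scale. In the order of group means, neighbours did not overlap except KO2 with bortezomib and KO2 with vehicle (means of 5.32 ± 0.828 and 4.97 ± 2.75 FPKM, SD, n = 2).

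The partners of NPTX1 were mostly not detected. AMPA receptor genes GRIA1, GRIA2 and GRIA4 had at most 3 reads in every library, and GRIA3 at most 5. NPTX2, the closest paralogue, had at most 4 reads, and CRP and APCS, the short pentraxins of liver, had none. NPTXR, the membrane-bound neuronal pentraxin that assembles with NPTX1, had 6.38 to 16.5 FPKM in control, 3.83 to 11.3 in KO1 and 2.02 to 5.33 in KO2. PTX3, a long pentraxin of innate immunity, had 0.183 to 0.469 FPKM in control and 0.134 to 0.395 in KO2, and 1.8 to 4.42 in KO1, where it rested on 60 to 119 reads per library.

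PTX3 was higher in KO1 than in KO2 in all libraries. With vehicle its FPKM was 4.42 and 3.25 in KO1 against 0.263 and 0.134 in KO2, a difference of 2.00 on the log2(FPKM + 1) scale (SE 0.25, limma adjusted p = 0.0238). It was 1 of 8 genes called between KO1 and KO2 in vehicle, 0.0656% of those tested, and in that fit the only called gene among the 63 listed genes tested. PTX3 passed the filter on low values only through KO1, as it had at most 0.469 FPKM in control and 0.395 in KO2. The call is therefore given as a description of these libraries. The call of PTX3 held with the block (limma adjusted p = 0.000746), but was lost with a pseudocount of 0.1 (0.162 in limma) and with voom on the recovered reads (0.0863 in limma). It also held in only 2 of the 12 fits that left out 1 library (limma adjusted p = 0.0484 to 0.263). NPTXR did not pass that test (0.98, limma adjusted p = 1), but with the title suffix as a replicate block it did (limma adjusted p = 0.0153).

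**Figure D3:**
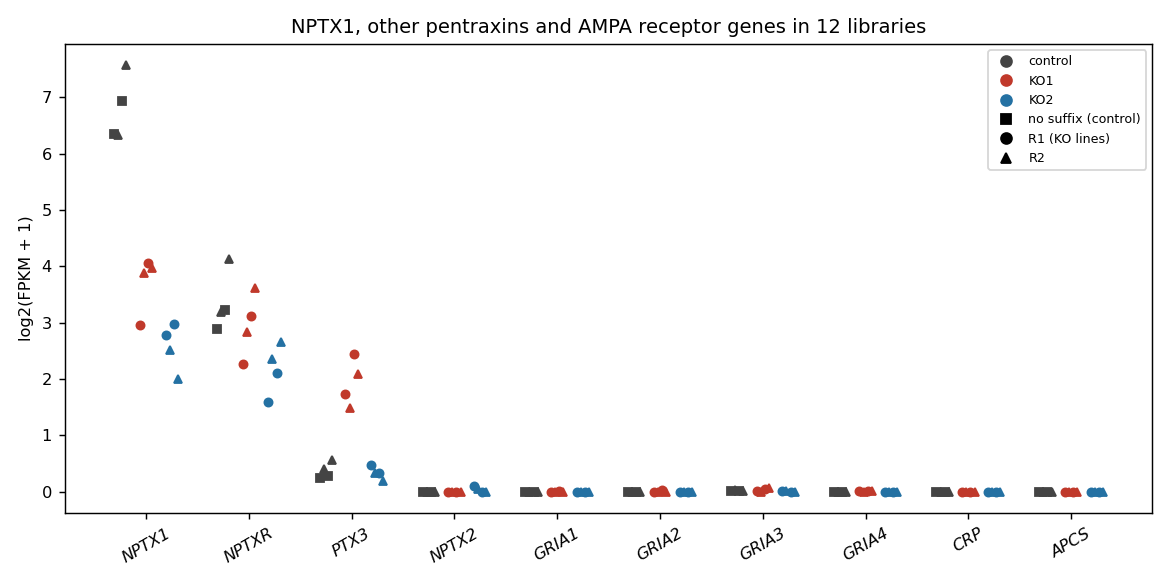
Expression, as log2(FPKM + 1), of NPTX1, the other pentraxins and the AMPA receptor genes in the 12 libraries, coloured by line, with the marker showing the title suffix. NPTX1 is highest in the control line, PTX3 is higher in KO1 (1.8 to 4.42 FPKM) than in the other lines, and the AMPA receptor genes lie at or near 0 in all lines.

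CDH4 was a main cadherin of the control line and a minor one in the knockout lines. Its FPKM was 13.8 (no suffix) and 25.9 (R2) in control cells with vehicle and 8.53 and 7.85 with bortezomib. KO1 gave 1.43 (R1) and 0.828 (R2) with vehicle and 0.875 and 0.353 with bortezomib. KO2 gave 4.11 (R1) and 2.26 (R2) with vehicle and 1.92 and 1.28 with bortezomib. Every control library lay above every knockout library, and KO1 was below KO2 in each treatment with no overlap. KO1 libraries held 49 to 146 reads of CDH4, so their relative precision was lower than in control libraries, with 882 to 3559.

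In vehicle, CDH4 was 3.2 to 10.4% of its control level in KO1 and 8.73 to 29.9% in KO2. The mean of the knockout lines was -2.76 from control with vehicle (SE 0.31) and -2.18 with bortezomib on the log2(FPKM + 1) scale. The lower value of KO1 is the reverse of NPTX1, which was lower in KO2.

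The 4 other cadherins with a mean FPKM of at least 1 were not lower in both knockout lines. CDH2, or N-cadherin, a close relative of CDH4, had 6.88 to 17.1 FPKM in control, 25.4 to 46.0 in KO1 and 11.7 to 22.6 in KO2. The CDH2 share of FPKM over 22 cadherins was 18.1 to 32.8% in control, 44.4 to 73.5% in KO1 and 20.6 to 45.1% in KO2, while that of CDH4 was 20.7 to 41%, 0.617 to 2.49% and 2.25 to 9.34%. CDH17, the intestinal and liver cadherin, had 3.44 to 7.96 FPKM in control, 3.63 to 21.6 in KO1 and 9.32 to 45.0 in KO2. CDH24 stayed between 3.34 and 11.1 FPKM in all lines. CDH1, the epithelial E-cadherin, had 1.54 to 3.74 FPKM in control and 1.42 to 9.53 in knockout cells. Among the cadherins under the filter, CDH26 had the order of lines of CDH4, with 0.226 to 0.554 FPKM in control, 0.0267 to 0.235 in KO2 and 0.0132 to 0.103 in KO1, where it had 1 to 11 reads.

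Knockout against control was tested for the listed genes that are not among the 4. The lists were the CRMP family, semaphorin and CRMP signalling, pentraxins and AMPA receptors, cadherins, catenins, REST and PTBP repressors, pan-neuronal and neuroendocrine markers, and markers of epithelial, fibroblast, blood and endothelial cells. Of their 63 genes over the filter, 0 passed limma without a block in vehicle, where 0.344% of all genes were called, and 0 with bortezomib, where 0.164% were. At an unadjusted p under 0.05, 561 of all genes passed in vehicle and 697 with bortezomib. Both counts are near a share of 0.05 of the 12194 genes tested, which passes when no gene differs. With the replicate block, 12 of 63 were called in vehicle (9 higher and 3 lower) and 14 with bortezomib (10 higher and 4 lower). R1 occurs only in knockout groups and no suffix only in control groups, so the block by suffix rests these contrasts mainly on R2. This holds for every knockout difference given below with the block, and its size is that of the blocked fit. Of all genes, the blocked fit called 6.18% in vehicle (3.42% higher and 2.76% lower) and 7.66% with bortezomib (3.9% higher and 3.76% lower). The lists were chosen with earlier results of these data known, so a larger share among them is a description and no test.

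With the block, 3 of 4 tested cadherins other than CDH4 rose in vehicle: CDH17 by 1.98 (limma adjusted p = 0.000492), CDH2 by 0.99 (0.0208) and CDH1 by 0.83 (0.0235), all adjusted p-values from limma. Without the block the adjusted p of CDH2 was 0.311 in limma and that of CDH17 and CDH1 was 1. CDH17 was 4.36 FPKM in the R1 and 21.6 in the R2 library of KO1 with vehicle, against 3.59 (no suffix) and 6.74 (R2) in control, so the 2 KO1 libraries lay farther apart than KO1 R1 and control. Of the 6 catenins tested, which link cadherins to actin, 0 were called in vehicle, and in cells given bortezomib JUP (plakoglobin) was higher in knockout than in control in the blocked fit (0.87, limma adjusted p = 0.0433). CTNNA1, the most expressed catenin, had a mean of 53.3 FPKM over all libraries.

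In the semaphorin list, 3 of 23 tested genes were called in vehicle with the block. NRP2, a semaphorin co-receptor, had 20.0 to 48.1 FPKM in control and 6.25 to 17.4 in knockout libraries. It fell by 1.49 in the blocked fit (limma adjusted p = 0.00365 with the block and 0.177 without it). SEMA3B, a secreted semaphorin, rose by 1.49 in the blocked fit (limma adjusted p = 0.0014 with the block and 1 without it). With vehicle it had 1.56 to 2.99 FPKM in control, 2.62 to 10.9 in KO1 and 3.52 to 10.8 in KO2. DYRK2, a kinase that phosphorylates CRMPs, rose by 0.74 (limma adjusted p = 0.0279 with the block). The most expressed gene of the list was the GTPase RHOA, with a mean of 130 FPKM. NPTXR fell by 0.81 in the blocked fit (limma adjusted p = 0.0264 against 1 without the block).

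Markers of neurons were checked because the 4 genes are known from neurons. Of 26 pan-neuronal and neuroendocrine markers, 7 had a mean FPKM of at least 1, led by UCHL1 at 143 to 425 FPKM in the 12 libraries. TUBB3 stayed between 0.608 and 1.39 FPKM, and GAP43, ELAVL4, DCX, NEUROD1 and INSM1 had a median of 0. Other members were expressed in every library, among them ENO2 (11.7 to 32.2 FPKM), INA (4.01 to 20.5), STMN3 (1.38 to 8.2) and CHGB (0.737 to 8.08). With the block, SYT1, the synaptic vesicle calcium sensor, rose by 0.95 and SNAP25, of the vesicle fusion complex, fell by 1.12 in vehicle (limma adjusted p = 0.00527 and 0.013, and 1 and 0.818 without the block). REST, the repressor of neuronal genes outside neurons, differed by 0.06 in vehicle (limma adjusted p = 1), and 0 of 12 tested genes of the REST and PTBP list were called between knockout and control in either treatment, without the block or with the block by suffix. With R1 and no suffix as 1 level of the block, RCOR1, a REST corepressor, was higher in knockout cells given bortezomib (limma adjusted p = 0.0173). PTBP1, a splicing repressor of neuronal exons, had the highest mean of that list at 58.1 FPKM.

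Epithelial markers were present in every library. Their summed FPKM over 6 genes was 510 to 1080 in control, 707 to 1390 in KO1 and 1100 to 1800 in KO2, led by the keratin KRT7 with a mean of 462. With the block, 4 of 6 rose in vehicle, among them KRT8 (1.36, limma adjusted p = 0.00358) and KRT18 (1.16, limma adjusted p = 0.00792), the simple-epithelium keratins, against 0 of 6 without it. Summed FPKM of 6 fibroblast markers was 2.22 to 24.4, led by COL1A1, of 6 blood cell markers 0.13 to 3.69, led by CD14, and of 5 endothelial markers 0.0367 to 0.286, led by CDH5. Fibroblast sums ranged to 11.0 in control, 21.0 in KO1 and 24.4 in KO2. LUM (lumican), of that list, was higher in both knockout lines, the direction of DPYSL3 and the reverse of NPTX1 and CDH4. It had 0 to 0.0177 FPKM in control libraries (at most 1 read), 0.377 to 1.4 in KO1 and 0.221 to 0.863 in KO2. THY1, also a fibroblast marker, had 1.23 to 2.51 FPKM in KO1 and at most 0.334 in the other lines. The remaining fibroblast markers overlapped between the lines. The part of these markers in the levels of the 4 genes was not tested.

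Bortezomib against vehicle within each line was not used to choose the genes, although it uses the same libraries. It asks whether inhibiting the proteasome for 4 h changes the 4 genes and whether the response differs without NFE2L1. Without a block, 0 of the 4 were called in any line, where limma called 0.467% of genes in control, 0.238% in KO1 and 0.32% in KO2. With the block, 1 of 4 was called in each line, against 32.4%, 27.7% and 27% of all genes, so that share was near the background. The smallest two-sided p of an exact permutation test of 2 libraries against 2 is 0.333.

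CDH4 gave the lower value with bortezomib in 6 of 6 pairs of libraries with the same suffix. The share of all genes lower in every pair was not counted. Of 12194 genes, the blocked fit called 1994 lower with bortezomib in control, 1684 in KO1 and 1754 in KO2, so a fall was common. It was 30.3 to 62% of the vehicle level in control, 42.7 to 61.2% in KO1 and 46.6 to 56.7% in KO2. The control difference was -1.12 on the log2(FPKM + 1) scale (95% interval -1.93 to -0.31, limma adjusted p = 0.228). With the block CDH4 fell in control (limma adjusted p = 0.00442) and in KO2 (-0.66, limma adjusted p = 0.0443 against 0.644 without it). In KO1 the difference was -0.40 (95% interval -1.21 to 0.41, limma adjusted p = 0.855 without the block and 0.18 with it), at a level near 1 FPKM where this scale shrinks ratios. If the block put R1 and the unnumbered libraries on 1 level, the limma adjusted p was 0.0174 in control and 0.126 in KO2.

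NPTX1 was lower with bortezomib in both control pairs and both KO1 pairs, and split in KO2. The difference was -0.91 in control (95% interval -1.91 to 0.09, limma adjusted p = 0.463), -0.59 in KO1 (-1.59 to 0.41, limma adjusted p = 0.809) and 0.16 in KO2 (-0.84 to 1.16, limma adjusted p = 0.99). None was called with the block. The spread in KO1 came from the R1 pair, 15.6 against 6.78 FPKM, while the R2 pair was 14.6 and 13.8.

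DPYSL3 gave no call and no common direction. The difference was 0.08 in control (95% interval -1.23 to 1.39, limma adjusted p = 0.989), -0.04 in KO1 (-1.35 to 1.28) and -0.17 in KO2 (-1.48 to 1.14). In each knockout line the R1 pair was lower and the R2 pair higher with bortezomib. With the block the intervals were -0.37 to 0.53, -0.48 to 0.41 and -0.62 to 0.28. With R1 and no suffix as 1 level of the block they were -0.62 to 0.78, -0.73 to 0.66 and -0.87 to 0.52. Control cells had 0.649 to 0.953 FPKM, where this scale shrinks ratios, so their intervals do not bound the fold change closely. DPYSL2 differed by 0.01 in control and -0.18 in KO2, with no call. In KO1 it differed by -0.58 (95% interval -1.78 to 0.62, limma adjusted p = 0.865), and in the blocked fit it fell by 0.58 (limma adjusted p = 0.0269).

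**Figure D4:**
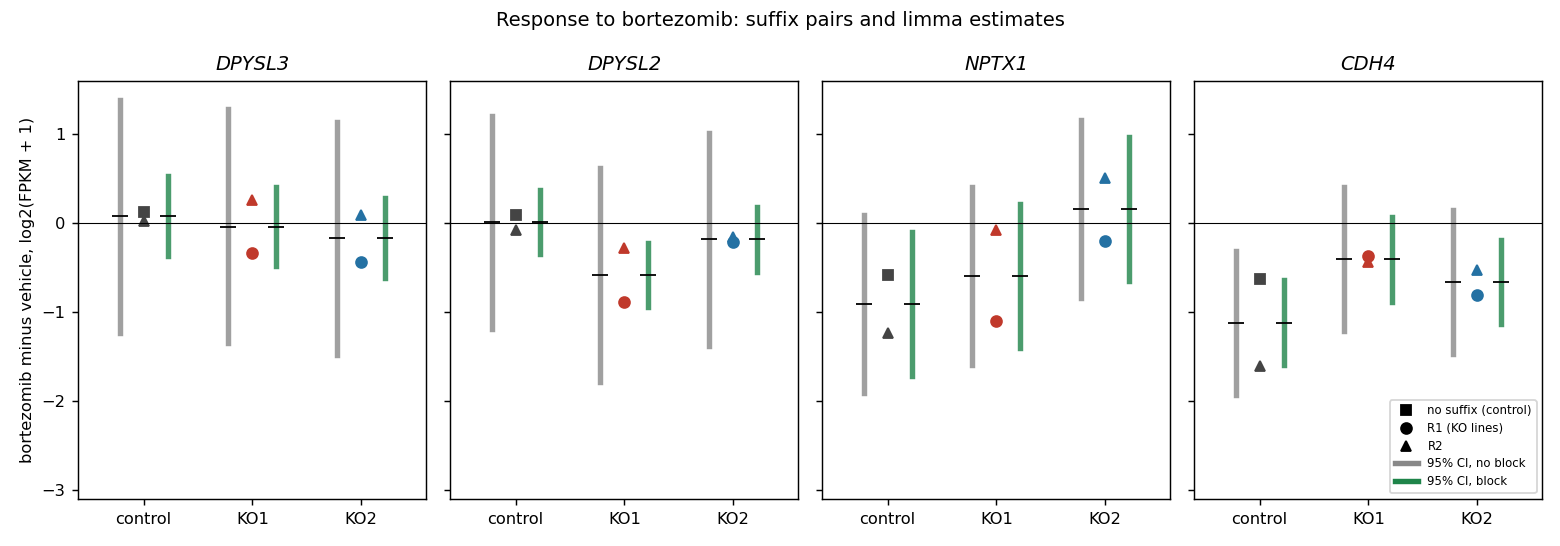
Difference between bortezomib and vehicle on the log2(FPKM + 1) scale for the 4 genes in each line. Points are pairs of libraries with the same title suffix (squares without suffix, circles R1, triangles R2), and bars are limma 95% intervals without (grey) and with (green) the replicate block, with the estimate as a dash. All 6 CDH4 points lie under 0, and the DPYSL3 points lie between -0.44 and 0.26.

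The interaction of knockout and bortezomib compared the response of the knockout lines with that of control. It was -0.18 for DPYSL3 (95% interval -1.79 to 1.42), -0.39 for DPYSL2 (-1.86 to 1.07), 0.69 for NPTX1 (-0.53 to 1.92) and 0.58 for CDH4 (-0.41 to 1.58). None was called, each with a limma adjusted p of 1, and limma called 0% of all genes without and with the block. At an unadjusted p under 0.05, 115 genes passed in the unblocked and 1305 in the blocked fit. When no gene differs, a share of 0.05 of the 12194 genes passes, and 115 is below and 1305 above that share. The responses of the lines are therefore not shown to differ for any of the 4.

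Among the listed genes, DPYSL4 and NRP1 gave larger responses than the 4, and they were not the only large ones. COL1A1 differed by 1.12 in control, 2.4 in KO1 and 1.81 in KO2, and the blocked fit called it in both knockout lines. CD14, at 0 to 3.63 FPKM, differed by -1.35, -1.31 and -1.02, and the blocked fit called it in all 3 lines. DPYSL4 had 2.86 to 5.1 FPKM in the 6 vehicle libraries and 8.49 to 12.9 in the 6 with bortezomib, with no overlap. With the block it rose by 1.27 in control, 1.25 in KO1 and 1.22 in KO2 (limma adjusted p = 0.000322, 0.000437 and 0.000436). The unblocked limma adjusted p-values were 0.094, 0.136 and 0.122. NRP1, the receptor for secreted semaphorins and VEGF, had 36.6 to 89.7 FPKM with vehicle and 6.18 to 15.7 with bortezomib. With the block it fell by 2.45 in control, 2.23 in KO1 and 1.81 in KO2 (limma adjusted p = 3.11e-05, 3.45e-05 and 9.59e-05), against unblocked limma adjusted p-values of 0.092, 0.15 and 0.248. Of the 63 listed genes, 0 were called in any line in the unblocked fit, and 21, 22 and 24 in the blocked one (control, KO1 and KO2), where 32.4%, 27.7% and 27% of all genes were called. Of the 23 semaphorin-list genes, the blocked fit called 8 in control, 5 in KO1 and 8 in KO2, with list medians of 0.07, -0.09 and 0.01, and CRMP1 was not called in any line.

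The knockout lines were also compared with each other in vehicle, a contrast not used to choose the genes but made from the same libraries. DPYSL3 was higher in KO1 than in KO2 in both suffix pairs (1.63 to 2.12 times), with a difference of 0.84 (95% interval -0.47 to 2.15, limma adjusted p = 1). NPTX1 was 2.26 to 4.84 times as high in KO1 (1.52, 95% interval 0.51 to 2.52, limma adjusted p = 0.946). CDH4 in KO1 was 34.8 to 36.6% of KO2 (-0.95, 95% interval -1.76 to -0.14, limma adjusted p = 1), and DPYSL2 differed by 0.43 (-0.77 to 1.62, limma adjusted p = 1). Without the block 0 of the 4 were called, and with it only CDH4 (limma adjusted p = 0.0467), against 3% of all genes. With R1 and no suffix as 1 level the call of CDH4 was lost (limma adjusted p = 0.145). NFE2L1 was lower in KO1 than in KO2. DPYSL3 and CDH4 were farther from control in KO1, and NPTX1 was farther in KO2. A relation of these genes to the NFE2L1 level was not tested.

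For each gene the 3 genes with the most similar pattern over the 12 libraries were found by Pearson's r of log2(FPKM + 1) among 12193 others. The libraries share lines and suffixes, so these values describe the pattern only. DPYSL3 was most like NAV3 (0.961), HOOK1 (0.96) and TCHP (0.959), against a median of 0.107 over all genes. HOOK1, a microtubule-linked adaptor, had group means of 0.205 to 0.302 FPKM in control and 1.32 to 1.5 in the knockout lines. NAV3, of the neuron navigator family, had 1.49 to 1.99 FPKM in control and 2.94 to 3.79 in the knockout lines. DPYSL2 was most like HOXA13 (0.973), SUCLG2-AS1 (0.955) and IPP (0.944).

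NPTX1 was most like ARSI (0.957), CHRDL2 (0.951) and SORCS2 (0.925). CHRDL2, a secreted chordin-like antagonist of BMPs, had group means of 2.34 to 3.14 FPKM in control and 0.157 to 0.608 in the knockout lines. SORCS2, a sorting receptor of the VPS10 family, had 3.03 to 4.92 in control and 0.653 to 2.31 in the knockout lines. CDH4 was most like P4HA3 (0.971), GFRA1 (0.968) and KCNH1 (0.968). GFRA1, the co-receptor of GDNF, had group means of 2.98 to 5.77 FPKM in control, 0.0232 to 0.0497 in KO1 and 0.735 to 0.993 in KO2, the same order of lines as CDH4.

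In the genome, coordinates being those of the deposited table, DPYSL3 (ENSG00000113657) lies on chromosome 5 at 147390811 to 147510056, minus strand. NPTX1 (ENSG00000171246) lies on chromosome 17 at 80467148 to 80477843, minus strand, and no other annotated gene overlaps it. CDH4 (ENSG00000179242) lies on chromosome 20 at 61252426 to 61940617, plus strand, and DPYSL2 (ENSG00000092964) on chromosome 8 at 26514275 to 26658178, plus strand. An antisense gene overlaps DPYSL3 (at most 0.215 FPKM in any library) and 4 genes overlap CDH4 (at most 0.423 FPKM). Whether counting used strand is not given in the sources used here, so reads of these overlapping genes cannot be told apart from those of DPYSL3 and CDH4.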

How the data were processed

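RNA-seq was done on total RNA from 12 libraries of A549 cells, 2 in each of 6 groups. The deposited table holds FPKM per gene, made by the authors, with a gene length. The submitters' processing notes name CASAVA, STAR 2.5, HTSeq 0.6.1, DESeq2 and hg19, without roles, while all 58676 gene IDs are in GENCODE 29 (GRCh38) and 95.2% have the same position there. The strand setting is not given in the sources used here. FPKM times length gave whole reads for 100% of values in each library (tolerance 0.05 reads), 13211608 to 23819258 per library.

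Groups came from the labels. limma 3.58.1 in R 4.3.3 was fitted to log2(FPKM + 1) with 1 mean per group over all 12 libraries, without a block, on the 12194 genes whose mean FPKM reached 1. A gene was called at a Benjamini-Hochberg adjusted p under 0.05 over all of them. The script was tested on simulated data. Same-suffix libraries deviated together: the correlation of their deviations from group means was 0.80 to 0.89 over 6 pairs of knockout groups and 0.70 to 0.89 over 15 pairs of all groups. The suffix was therefore taken to pair libraries, and blocked values are given where they change a call. R1 occurs only in knockout groups and no suffix only in control groups, so blocked contrasts of knockout with control rest mainly on R2. Tables were made with Python 3.11.15.

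The members and the 11 gene lists were chosen with earlier results of these data known. Named are the 4 genes, NFE2L1, all CRMP and pentraxin list genes, per list up to 4 called genes of largest change and the most expressed gene, and per member the 3 genes of highest correlation. GAP43, ELAVL4, DCX, NEUROD1, INSM1, TUBB3, REST, CDH24, CDH26, LUM, THY1, RCOR1 and CHGB are named outside that rule, after their values were seen. Alternatives were another pseudocount, no filter, quantile normalization, 2 forms of the block, voom on the recovered reads, and leaving out each library.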

Additional observations from a re-analysis of the deposited data

How the results depend on the processing

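The knockout differences of DPYSL3, NPTX1 and CDH4 kept their direction under every alternative run. The genes were chosen by that direction in these libraries, so this is a description and no independent support. Over the settings with all libraries, the difference in vehicle was 2.94 to 4.60 for DPYSL3 and -3.99 to -2.76 for CDH4. CDH4 was -3.39 with voom alone and -3.99 with voom and the block together.

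The replicate block changed 4 calls of the 4 genes: DPYSL2 in KO1 with bortezomib (-0.58), CDH4 with bortezomib in control (-1.12) and in KO2 (-0.66), and CDH4 between KO1 and KO2 (-0.95). The block changed no other call of the 4. With a merged block, R1 and no suffix sharing 1 level, the calls were DPYSL2 in KO1 (-0.58) and CDH4 in control (-1.12). With voom and the block they were DPYSL2 in KO1 (-0.63), NPTX1 in control (-0.92) and between KO1 and KO2 (1.71), and CDH4 in control (-1.22), KO1 (-0.94), KO2 (-0.98) and between KO1 and KO2 (-1.49).

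Counts of called genes, in the order bortezomib in control, KO1 and KO2 and then KO1 against KO2, were 3952, 3378, 3297 and 366 with the block. They were 3968, 3403, 3291 and 303 with the merged block, 4624, 4019, 3950 and 709 with voom and the block, and 124, 64, 96 and 42 without a filter. Quantile normalization gave 142, 57 and 112 for bortezomib. KO1 against KO2 gave 5 with a pseudocount of 0.1 and 3 with voom. The interaction gave 7 without a filter and 113 with voom and the block. Knockout against control gave 754, 1001 and 1259 in vehicle and 934, 1550 and 1517 with bortezomib (block, merged block, voom and block), 26 and 7 with quantile normalization, and 97 with bortezomib without a filter. With quantile normalization 54.4% of calls were higher for bortezomib in KO1 (65.5% without it) and 37.5% for KO1 against KO2 (25% without it). Listed genes called were 12, 17 and 20 in vehicle and 14, 20 and 17 with bortezomib under the 3 blocked fits.

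Leaving out each library gave 4 to 30 calls for bortezomib in control, 5 to 26 in KO1, 5 to 34 in KO2, 1 to 9 for KO1 against KO2, 2 to 22 for knockout in vehicle and 1 to 19 with bortezomib. All are lower than with 12 libraries except KO1 against KO2 without the unnumbered control vehicle library (9 against 8), and fewer libraries leave fewer degrees of freedom. Direction turned within these ranges for DPYSL3 with bortezomib (-0.03 to 0.19 in control, -0.84 to 0.77 in KO1, -0.77 to 0.43 in KO2, interaction -0.59 to 0.22), for DPYSL2 (-0.51 to 0.53 in control, -0.57 to 0.20 in KO2, -0.09 to 0.95 between KO1 and KO2, interaction -0.91 to 0.13) and for NPTX1 in KO2 (-0.33 to 0.65). None of these was called. The knockout difference of DPYSL2 in vehicle also turned (-0.58 to 0.30). The cause of these shifts was not tested. CDH4 in KO1 rested on 49 to 146 reads per library.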
